A study of Zea mays with 18 samples.

Results

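Of the 39372 maize probes measured, 165 (0.419%) had a spot marked as well above background, here called detected, on all 8 root arrays of the inbred line Lo5 that were used and on none of the 9 root arrays of the inbred line T250, and these 165 transcripts are described here. Because the transcripts were chosen by that difference between the lines, every Lo5 against T250 value of the 165 is a description without a test. Fewer than 200 transcripts met the rule, so no limit on their number was applied. The opposite pattern, all 9 T250 arrays and no Lo5 array, was found for 424 probes (1.08%).

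The samples were whole roots of Lo5, a line with high nitrogen (N) use efficiency, and of T250, a line with low N use efficiency, taken after 0, 1 and 4 d of hydroponic growth in a nutrient solution without N. All seedlings had been germinated in the dark and kept in a calcium sulfate solution before N-free growth began, and no plants kept on N were sampled, so a change over days contains age as well as N supply. Each sample pooled the roots of 3 seedlings, and the 3 replicates of each of the 6 groups came from repeats of the whole growth experiment. RNA was labelled with 1 dye and hybridised to a custom Agilent array of maize transcripts. Levels are log2 processed signals minus the log2 75th percentile of all probes on the same array, so a level of 0 is the 75th percentile and each unit is a doubling. Probes differ in how well they bind, and a level is therefore compared only between arrays of the same probe.

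Maize inbred lines differ unusually much in sequence, in the genes they carry and in the genes they express, and a probe designed on one genome can stay dark in another line for any of these reasons. A missing gene, an altered sequence under the probe and a gene that is not transcribed in the root all give the same dark spot. These cases cannot be told apart with these arrays, and neither can fewer cells of a type and less RNA per cell. The gene models behind the transcript identifiers come from B73, the line of the reference genome. No coordinates are given, since the reference table used for names follows a later assembly.

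The array labelled Lo5 1 d replicate 3 went against its label for this set and was not used to choose it, which left 8 Lo5 arrays, with 2 at 1 d. Only 14 of the 165 transcripts (8.48%) were well above background on it, whereas 398 of the 424 T250-only probes (93.9%) were. All 18 arrays had between 28868 and 32446 probes well above background and no saturated spot, and the scanner software marked between 4.12% and 12.3% of the spots of an array as non-uniform or as outliers. Of 6 root genes looked up, 3 were detected on all 17 other arrays, among them the root hair gene rth3 and the nitrate transporter gene ZmNRT1.5. The gene rtcs, needed for crown root formation, was detected on 4 of 8 Lo5 and all 9 T250 arrays. ZmNRT2.2, another nitrate transporter gene, was detected on all 8 Lo5 and 8 of 9 T250 arrays. The phosphate transporter gene ZmPHT1;2 was detected on 3 of 8 Lo5 arrays and on no T250 array. The leaf markers planned as a check of the tissue were not analysed here.

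On the Lo5 arrays the 165 transcripts covered a wide range of brightness, and on the T250 arrays none of their spots was well above background. Their mean Lo5 level ran from -5.81 to 3.56 with a median of -2.78, and 22 of them were brighter than the 75th percentile of the array. Their mean T250 level ran from -8.71 to -6.59 with a median of -8.27. The measured difference, Lo5 minus T250, had a median of 5.38 on the log2 scale and ran from 1.66 to 11.97, with 21 transcripts at 8 or more and 3 under 2. With normexp background correction in place of the processed signals, the differences were smaller, with a median of 0.78 and a range from -0.24 to 6.35, and 22 of the 165 were below 0. That correction was run on median signals, and its offset of 50, added to every spot, by itself narrows log2 differences from dim spots. The share of the offset in the smaller differences was not tested.

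**Figure D1:**
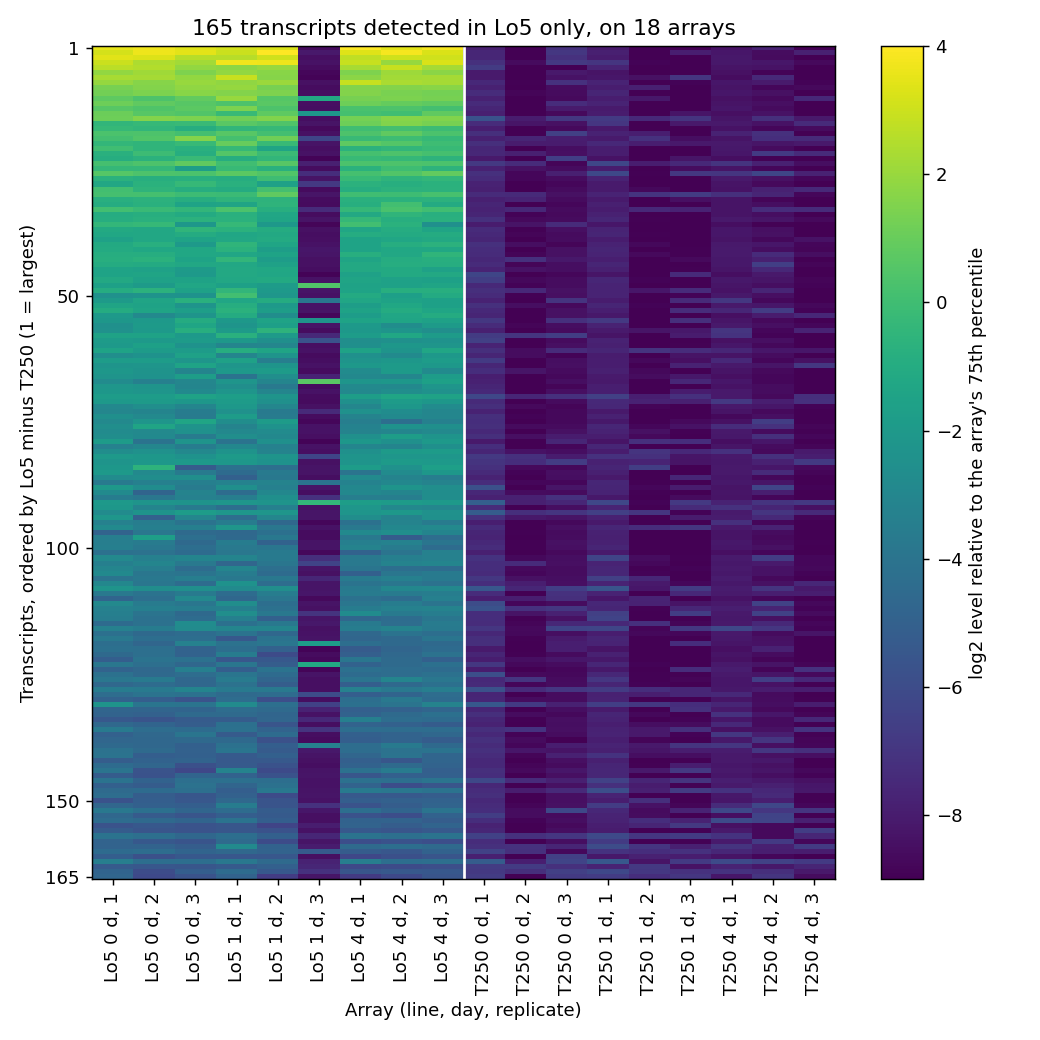
Heat map of the log2 level of the 165 transcripts (rows, ordered by Lo5 minus T250) on all 18 arrays (columns, by line, day and replicate), with the lines separated by a white line. The 8 Lo5 columns that chose the transcripts are bright from 0 to 4 d, and the column labelled Lo5 1 d replicate 3 is as dark as the T250 columns except for 14 rows.

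A spot that is not well above background gives only a bound on the difference. To state that bound, the mean Lo5 level was set against the lowest signal that counted as well above background on each T250 array, or the transcript's own signal there if it was higher, averaged over arrays. On this scale the transcripts were at least 1.67-fold to at least 1116-fold higher in Lo5, with a median of 13.4. These bounds hold for the processed signals only: with normexp, even the largest measured difference, 6.35 log2 units, was smaller than the largest of them. The bound was at least 10-fold for 92 transcripts and at least 100-fold for 22.

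The 10 transcripts with the largest measured difference were ranked by it on these same arrays, so their wide gap between the lines follows from the choice. GRMZM2G139874_T01 had levels of 3.54, 3.73 and 3.40 at 0 d, 3.18 and 3.28 at 1 d and 4.04, 3.45 and 3.84 at 4 d. On the T250 arrays it ran from -9.22 over a median of -8.34 to -7.12, so that it was at least 1116-fold higher in Lo5. The lowest Lo5 spot of this transcript lay 10.30 log2 units above the highest T250 spot.

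GRMZM2G362470_T01 had levels of 3.19, 3.66 and 3.45 at 0 d, 2.97 and 4.10 at 1 d and 3.38, 3.83 and 3.28 at 4 d in Lo5, against -9.08 to -6.88 in T250. It was at least 1058-fold higher in Lo5, and the 3 days overlapped in Lo5. GRMZM2G177384_T01 ran from 2.60 over a median of 3.06 to 3.43 in Lo5 and from -9.10 over -8.64 to -7.15 in T250, with a bound of at least 752-fold. The other 7 of these 10 transcripts had mean Lo5 levels between 1.46 and 2.89. They were GRMZM2G360234_T01, GRMZM2G350205_T01, AC216229.3_FGT002, GRMZM2G701246_T01, GRMZM2G033846_T01, GRMZM2G023392_T01 and GRMZM2G153450_T01, with bounds from at least 261-fold in the last to at least 701-fold in the first. Marked spots were frequent among these bright transcripts: 9 of the 10 had at least 1 marked spot on the 8 Lo5 arrays, and GRMZM2G360234_T01 had 7.

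**Figure D2:**
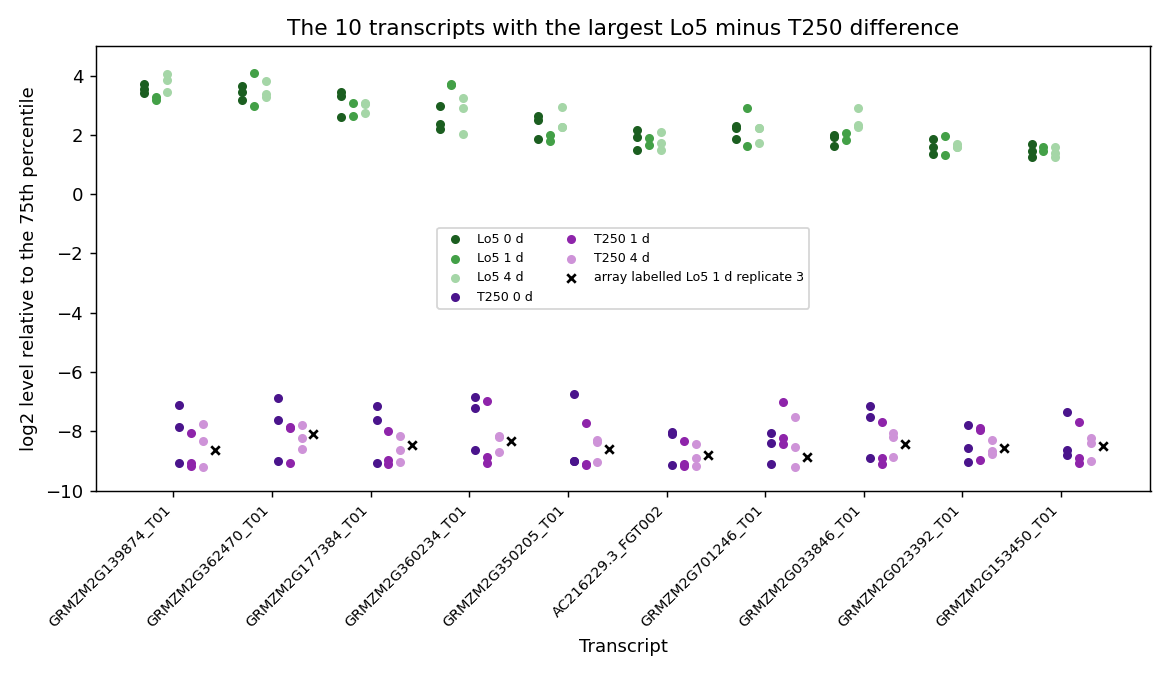
Log2 level of the 10 transcripts with the largest Lo5 minus T250 difference (horizontal axis) on each array, with points for single arrays coloured by line and day and crosses for the array labelled Lo5 1 d replicate 3. All Lo5 points lie above 1 and all T250 points below -6, and the crosses lie among the T250 points.

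At the other end, 3 transcripts differed by less than 2 log2 units. GRMZM2G412793_T01 ran from -6.72 over a median of -5.89 to -4.71 in Lo5 and from -9.10 over -6.97 to -6.67 in T250. It was the only one of the 165 whose lines overlapped in signal, by 0.05 log2 units. GRMZM5G813627_T01 differed by 1.79 and GRMZM2G177215_T01 by 1.86. In 164 transcripts the lowest Lo5 spot lay above the highest T250 spot, and the median gap between them was 3.34. This separation largely follows from the rule, which asked for detection on every Lo5 array and on no T250 array. The same count over all probes was not made.

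A weaker mark of the same software, a signal positive and significant against background, was set on at least 1 T250 array for 138 of the 165 transcripts, on all 9 for 5 and on none for 27. So a dark T250 spot in this set is a spot below the stricter mark, and not always a spot with no signal.

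The edge of the set was not sharp. A further 118 probes were well above background on all 8 Lo5 arrays and on 1 of the 9 T250 arrays, with a median difference of 4.70. Among them GRMZM2G466519_T01 differed by 9.85, and its single T250 spot, at 0 d in replicate 3, had a level of -5.78. GRMZM2G175549_T01 differed by 9.29 although it reached -2.24 on 1 T250 array, at 1 d in replicate 2. GRMZM2G077375_T01, with a difference of 9.22, reached -1.60 at 1 d in replicate 3 of T250. On the other side, 19 probes were detected on 7 of the 8 Lo5 arrays and on no T250 array, with a median difference of 2.70 and a largest one of 3.43 in GRMZM2G122816_T01. GRMZM2G462258_T01 and GRMZM2G703910_T01 followed, both at 3.39, and each of these 3 was missed on a 1 d array.

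The T250-only probes showed much the same sizes in the other direction. Their median difference, T250 minus Lo5, was 5.62 and their largest was 11.49, and 267 of the 424 had a bound of at least 10-fold. As the rule for that set asks for 9 detected arrays and 8 dark ones, and this one for 8 and 9, the numbers of transcripts in the sets are not fully comparable.

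Most of the 165 transcripts are gene models without a name in the sources used here. The reference table matched 68 of them (41.2%) to a reference gene, against 47.6% of all probes, and 65 to exactly 1 gene. Identifiers based on a single BAC clone, such as AC216229.3_FGT002, made up 6.67% of the set and 7.66% of all probes. Only 3 transcripts occur in the study's own lists of transcripts that changed between days, and 2 of these have a description, so a count by functional class would be void. The named ones cover quite different functions.

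GRMZM2G062772_T01 is listed as CCamK, the calcium- and calmodulin-dependent protein kinase that reads calcium signals during root symbiosis with mycorrhizal fungi. Its Lo5 levels were -0.28, -0.44 and -0.90 at 0 d, -0.45 and -0.29 at 1 d and 0.02, 0.09 and -0.07 at 4 d, and its T250 levels ran from -9.21 over a median of -8.65 to -7.90. It was at least 77.5-fold higher in Lo5. All 3 arrays at 4 d lay above all 0 d and 1 d arrays, with a log2 ratio of 4 d over 0 d of 0.55 ± 0.33 (SE, limma, adjusted p = 0.653).

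GRMZM2G165917_T01 is listed as eIF-5, an initiation factor of protein synthesis that helps the ribosome select the start codon. It ran from -3.06 over a median of -2.42 to -1.54 in Lo5 and from -9.19 over -8.56 to -7.64 in T250, and was at least 18-fold higher in Lo5. GRMZM2G134134_T01 is listed as rpS14, a protein of the small ribosomal subunit. It ran from -4.89 over -4.25 to -4.01 in Lo5 and from -8.42 over -7.65 to -6.20 in T250, with a bound of at least 4.92-fold. Whether other probes report the same functions of basic protein synthesis in T250 was not tested.

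Some reference genes carry more than 1 probe, and these show how a second probe behaved where the first was dark in T250. GRMZM2G037690_T01 and GRMZM2G336678_T01, both in the set, match the same reference gene, LOC100193937. The first ran from -0.90 to -0.19 in Lo5 and from -9.24 to -6.57 in T250, and the second from -4.00 to -3.36 and from -9.01 to -6.53. Both probes of this gene were thus dark in T250.

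In other genes the second probe was detected in both lines. GRMZM2G313816_T01 ran from -5.70 to -5.23 in Lo5 and from -9.10 to -6.62 in T250, whereas GRMZM2G012992_T01, of the same reference gene LOC100277522, ran from -0.77 to -0.13 in Lo5 and from -0.84 to 0.12 in T250, so its lines overlapped. GRMZM2G085460_T01 was at least 5.76-fold higher in Lo5, and GRMZM2G420823_T01 of the same gene LOC100283406 was detected on all 17 arrays, from -4.11 to -3.07 in Lo5 and from -5.14 to -3.86 in T250. GRMZM2G017266_T01 matches 2 reference genes, and GRMZM2G312954_T01, which matches them too, was detected on all arrays, with means of -0.35 ± 0.26 (SD, n = 8) in Lo5 and -1.13 ± 0.51 (SD, n = 9) in T250. For these 3, detection of the gene model in Lo5 only did not extend to the reference gene as a whole.

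The remaining pairs were dim. GRMZM2G704349_T01, of the same reference gene as GRMZM2G046776_T01, was detected on 3 of 8 Lo5 and 6 of 9 T250 arrays. GRMZM2G009876_T01, of the same reference gene as GRMZM2G174204_T01, was detected on 1 Lo5 array and no T250 array.

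**Figure D3:**
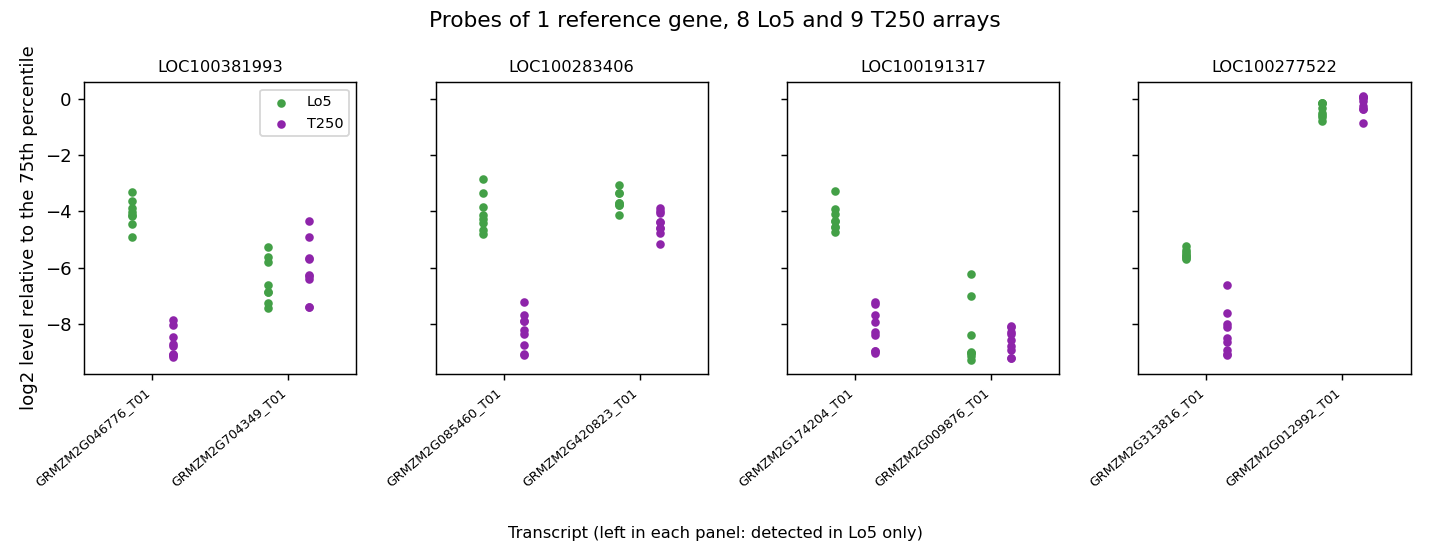
Log2 level on each of the 8 Lo5 (green) and 9 T250 (purple) arrays for 4 transcripts of the set (left in each panel) and for a second probe of the same reference gene (right). Levels compare only within a probe; the second probes of LOC100283406 and LOC100277522 were detected on all 17 arrays.

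In the gene order of the reference, 63 of the 165 transcripts could be placed. None of their 127 measured neighbours was in the set. Only 63 of all 17744 placed probes were in the set, so that count says little about whether the transcripts cluster. Of these neighbours, 89 (70.1%) were well above background on all T250 arrays, against 76.4% of all 17744 placed probes, and 6 (4.72%) were on no T250 array, against 6.15%. The closest pair from different genes was GRMZM2G106344_T01 and GRMZM2G139198_T01, which lay 8 genes apart. The transcripts that could not be placed are not part of these counts.

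Over the Lo5 arrays the transcripts varied slightly more between replicates, and about as much between days, as probes detected in both lines. Their range over the 8 arrays had a median of 1.30 log2 units, against 1.17 for the 24837 probes detected on all 17 arrays, and was under 1 for 50 transcripts and over 2 for 24. The SD within days had a median of 0.43, against 0.36 for the probes detected on all 17 arrays and 0.50 for the T250-only probes on the T250 arrays. The SD of the 3 day means had a median of 0.23, against 0.24 for the probes detected on all 17 arrays. The probes detected on all 17 arrays were brighter, with a median Lo5 level of -0.82 against -2.78 for the transcripts. All probes, detected or not, had a median level of -2.88. Their median range over the 8 arrays was 1.37, against 1.30 for the transcripts. Their median SD over the 8 arrays, with the days not separated, was 0.47, against 0.43 for the transcripts.

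GRMZM2G387837_T01 was the steadiest, from -1.30 over a median of -1.11 to -0.93, a range of 0.37. GRMZM2G157990_T01 and GRMZM2G393146_T01 followed with ranges of 0.38 and 0.44. The widest range, 4.64, was that of GRMZM2G016312_T01, with levels of -2.14, -0.60 and -5.24 at 0 d, -4.14 and -4.28 at 1 d and -1.80, -2.42 and -1.65 at 4 d. In this transcript the 0 d replicates differed more from each other than the days did. GRMZM2G471357_T01, with a range of 3.49, had 1 high array at 0 d, at -1.73 in replicate 2, and GRMZM2G003004_T01, with a range of 3.01, went from -6.22 to -3.21.

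The contrast between days within Lo5 was not the one in the rule and was tested with limma over all probes. The rule did ask for detection on the Lo5 arrays of every day. Transcripts that switch on or off between days were therefore excluded from the set, but not from all probes. For 4 d against 0 d, 6.17% of the transcripts changed by 1 log2 unit or more, beside 9.61% of all probes. The share was 7.46% among the 26277 tested probes detected on all 8 Lo5 arrays. A transcript was called when its Benjamini-Hochberg adjusted p was 0.05 or lower and its level changed by 1 log2 unit or more, up or down. None of the 162 transcripts tested was called for 4 d against 0 d, beside 43 of 30653 probes (0.14%). None of 160 was called for 1 d against 0 d, nor any of 30251 probes (0%), and none of 162 for 4 d against 1 d, beside 2 of 30319 probes (0.0066%). With limma, 8, 5 and 6 of the transcripts had an unadjusted p of at most 0.05 in these comparisons, in that order. That is 4.94%, 3.13% and 3.70% beside 9.38%, 2.77% and 9.95% of all probes. That fit shared the residual spread over all 6 groups, so the dark T250 spots entered the SE of each transcript. With only the 8 Lo5 arrays in limma, 14 of 161 transcripts passed that p for 4 d against 0 d, beside 3432 of 30099 probes. With the methods' t-test 21 of 154 did, beside 3485 of 28504, so the lower share was not stable for 4 d against 0 d. For 4 d against 1 d these counts were 11 of 161 beside 3669 of 29987, and 12 of 156 beside 3220 of 28105. The share of the transcripts stayed lower in these fits, but with the slide as a block 32 of 162 passed, beside 3530 of 29525. The methods' t-test also called none of the transcripts after adjustment. The median log2 ratio of the transcripts was 0.02 for 4 d against 0 d, -0.06 for 1 d against 0 d and 0.11 for 4 d against 1 d, beside -0.10, 0.01 and -0.10 over all probes tested. These medians were not stable: they were 0.29, -0.19 and 0.50 with the slide as a block and -0.16, 0.84 and -0.96 with normexp, which also moved the medians over all probes to -0.23, 0.62 and -0.78. Leaving out 1 Lo5 array turned the sign in each comparison, with ranges of -0.04 to 0.09, -0.22 to 0.11 and -0.13 to 0.31. The slide with replicate 1 of Lo5 at 0 d and 1 d held no 4 d array and was the only one with its scan date. Day is therefore partly confounded with slide and scan. Within the slides that held both days, the median for 4 d against 0 d was -0.09 and 0.16. Marked spots were left out of these fits, so that 3 of the bright transcripts, GRMZM2G362470_T01, GRMZM2G360234_T01 and GRMZM2G023392_T01, had too few spots for the 4 d against 0 d test.

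At the threshold of the study's methods, an unadjusted p of at most 0.01 and a change of 1 log2 unit or more, 3 transcripts passed for 4 d against 0 d, all upward, where 2.18% of all probes passed. GRMZM2G405503_T01, described as an S-adenosyl-L-methionine-dependent methyltransferase, a class of enzymes that place methyl groups on other molecules, had levels of -0.46, -0.30 and -0.19 at 0 d, 0.70 and 0.43 at 1 d and 1.14, 1.53 and 1.34 at 4 d. All 4 d arrays lay above all 1 d arrays, and these above all 0 d arrays. The log2 ratio of 4 d over 0 d was 1.65 ± 0.44 (SE, limma, adjusted p = 0.218). In a fit of only the 2 groups compared the adjusted p of this transcript in limma was 0.0481, and it was 0.0692 with only the 8 Lo5 arrays.

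GRMZM2G018254_T01, described as a GRAS transcription factor, a plant family that includes regulators of root patterning, had levels of -4.88, -3.86 and -4.51 at 0 d, -4.61 and -4.21 at 1 d and -2.83, -2.55 and -3.13 at 4 d. The 0 d and 1 d arrays overlapped, and all 4 d arrays lay above them. The log2 ratio was 1.58 ± 0.41 (SE, limma, adjusted p = 0.194) for 4 d over 0 d and 1.57 ± 0.46 (SE, limma, adjusted p = 0.284) for 4 d over 1 d. It was the only transcript of the set past the methods' threshold between 1 and 4 d, where 2.41% of all probes passed. The third, GRMZM2G098750_T01, with levels of -5.44, -5.60 and -5.29 at 0 d and -3.39, -4.34 and -4.46 at 4 d, had a log2 ratio of 1.38 ± 0.44 (SE, limma, adjusted p = 0.334). With normexp the ratio of 4 d over 0 d was 0.51 for GRMZM2G018254_T01 and 0.13 for GRMZM2G098750_T01.

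GRMZM2G106344_T01 was the only transcript past the methods' threshold for 1 d against 0 d, where 0.443% of all probes passed, and its ratio was downward. Its levels were -2.73, -2.62 and -2.57 at 0 d, -5.00 and -3.77 at 1 d and -2.78, -3.17 and -3.48 at 4 d, with a log2 ratio of -1.75 ± 0.49 (SE, limma, adjusted p = 1.00) for 1 d over 0 d. Both 1 d arrays lay below all others. The ratio was -1.13 without Lo5 1 d replicate 1 and -2.36 without Lo5 1 d replicate 2, and it turned to 0.48 with normexp. GRMZM2G124567_T01, the third transcript in the study's lists, reached 0.09 on 1 array at 1 d against -2.16 on the other, and its log2 ratio of 1.34 ± 0.61 (SE, limma, adjusted p = 1.00) became 0.22 without the first of these arrays. The study chose its lists on these samples, so that the presence of a transcript there is no independent evidence of its direction.

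AC217050.4_FGT007 had the most negative ratio of the 162 transcripts tested for 4 d against 0 d, and it did not pass the methods' threshold. Its levels were -2.90, -2.20 and -1.33 at 0 d and -3.46, -4.30 and -3.33 at 4 d. Its log2 ratio was -1.55 ± 0.64 (SE, limma, adjusted p = 0.470), and the arrays of the days did not overlap. Over the set, the arrays of 4 d and 0 d did not overlap in 29 of the 144 transcripts with all spots usable on both days, which is 20.1% beside 23.3% of all probes, with 18 of them (12.5% of the 144) higher at 4 d beside 8.66% of all probes. The shares were 15.1% beside 11.9% for 1 d against 0 d, and 25.2% beside 32.4% for 4 d against 1 d. No change over days is given for T250, where no spot of these transcripts was well above background.

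**Figure D4:**
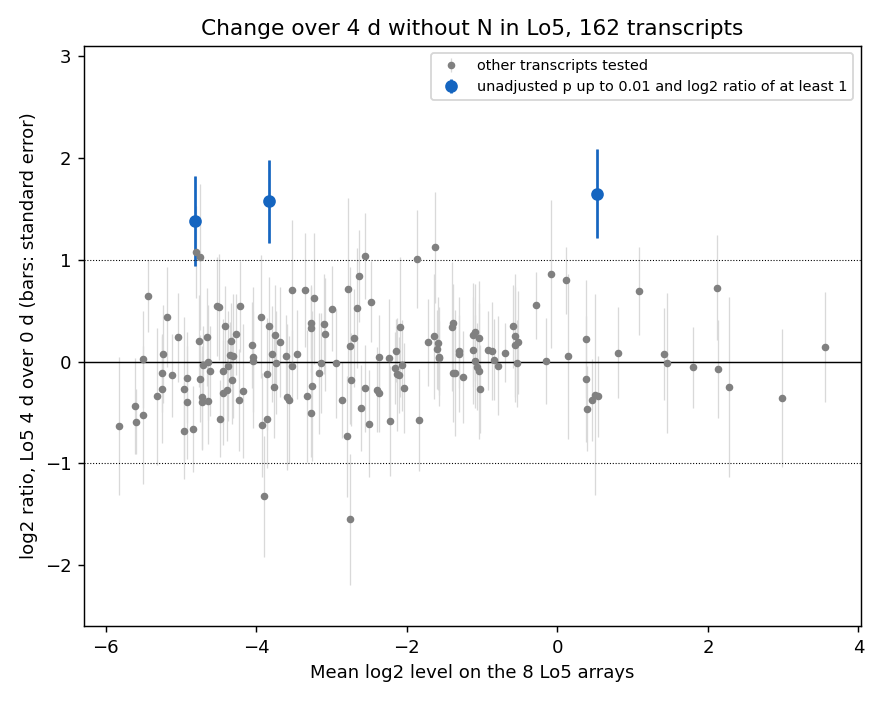
Log2 ratio of Lo5 4 d over 0 d with its standard error (vertical axis) against the mean log2 level on the 8 Lo5 arrays (horizontal axis) for the 162 transcripts tested. The 3 blue points, at 1.65, 1.58 and 1.38, passed an unadjusted p of 0.01, and none of the 162 passed after adjustment.

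The array labelled Lo5 1 d replicate 3 is the only one that did not choose the transcripts. The 151 transcripts not well above background on it had a median level of -8.37 there, and the highest of them was at -6.29. The other 14 followed the Lo5 arrays only in part. In 1 of them, AC206223.3_FGT008, this array lay within the range of the 8 Lo5 arrays, in 7 it lay below their lowest and in 6 above their highest.

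GRMZM2G017266_T01 had a level of 0.67 on this array, against -3.33 to -1.59 on the 8 Lo5 arrays and -9.10 to -7.58 on the T250 arrays. GRMZM2G124078_T01 had 0.49, against -1.93 to -1.30 in Lo5 and at most -7.52 in T250. GRMZM2G143530_T01 had -0.38, against -2.34 to -1.78 in Lo5. For these transcripts the array matched the range of neither line.

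The same held for GRMZM2G032759_T01, at -1.14 against -5.16 to -3.84 in Lo5. GRMZM2G136525_T01 went the other way, at -1.16 against 0.39 to 1.97 in Lo5 and at most -7.57 in T250. Among the 24837 probes detected on all 17 other arrays, 24667 were well above background on this array too. The other 170 were missed on this array alone, against 10 to 188 on any single one of the others. When this array was counted as Lo5, only its 14 detected transcripts were left in the set, and when it was counted as T250, 151 were left.

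**Figure D5:**
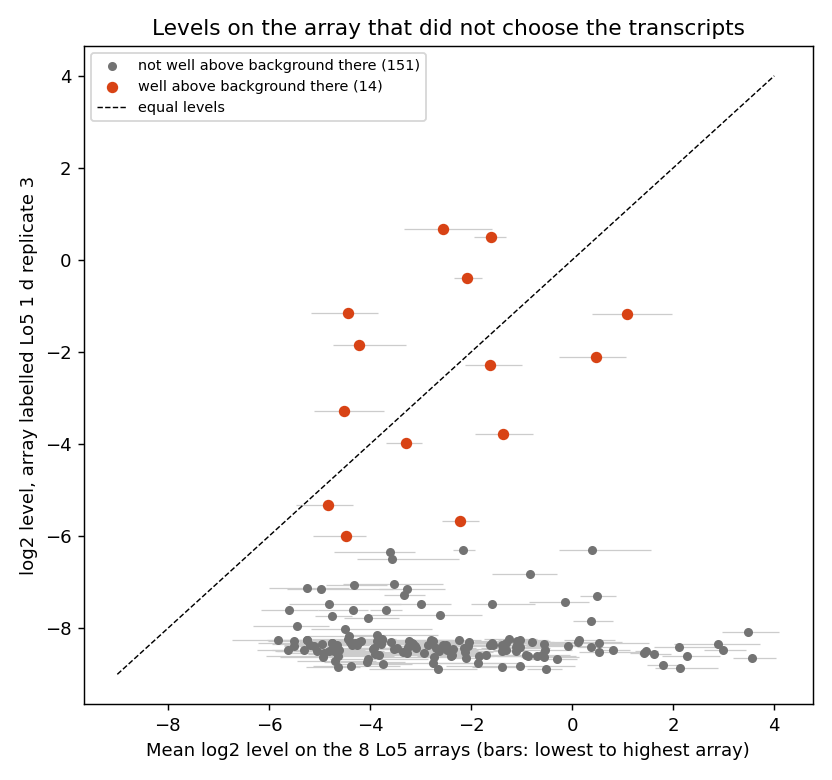
Log2 level on the array labelled Lo5 1 d replicate 3 (vertical axis) against the mean log2 level on the 8 Lo5 arrays (horizontal axis; bars run from the lowest to the highest array) for the 165 transcripts, with the dashed line at equal levels. The 151 grey points lie at -6.29 or lower on this array, and the 14 orange points spread on both sides of the dashed line.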

How the data were processed

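The 18 root RNA samples were hybridised by the authors to custom 4-pack Agilent arrays with 1 dye, and scanner files of Agilent Feature Extraction 10.5.1.1 were used here. The deposited intensity is the background-subtracted processed signal (gProcessedSignal), with marks for spots well above background, positive and significant spots, saturation and outliers. The deposited series table holds intensity values of the same spots, which followed the processed signals after the authors' 75th percentile scaling. The annotation of the probes is B73 release 5b per the study's methods.

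Here each array was taken as log2 intensity minus its 75th percentile over non-control probes. Fits used limma 3.58.1 in R 4.3.3 over 6 group means with 17 arrays, without marked spots, on probes that were well above background throughout 1 group or more. Depth of an array is limited by spot brightness, and the number of arrays limits the precision. The replicates are repeats of the growth experiment. The scripts were tested on simulated data. Named transcripts are the 10 of largest difference, those just outside the rule, those of smallest and largest range, those past the methods' threshold, the 5 brightest on the unused array, those in the study's lists, second probes and those with a gene name (the last chosen after their values were seen). The members and lists were chosen with earlier results of these data known.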

Additional observations from a re-analysis of the deposited data

Results flagged for a closer look

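A signal appeared on an array that the main comparisons left out. This array carries the label Lo5 1 d replicate 3. It detected 14 of the 165 transcripts, although none of them was detected on any T250 array, and 6 of the 14 were above the highest of the 8 Lo5 arrays. Its label, and the source of these 14 spots, cannot be told from the values given here. Groups of 3 arrays are too small for a check on outlying arrays, so single arrays such as GRMZM2G124567_T01 at 1 d are given as values only.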

How the results depend on the processing

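The size of the set depended on the detection mark and on the unused array: 36 probes met the rule with the weaker mark of a positive and significant signal (27 of them in the set), and 14 with the array labelled Lo5 1 d replicate 3 counted as Lo5. Leaving out 1 array at a time gave 165 to 196, with the most without T250 1 d replicate 2. Leaving out an array can only loosen the rule, so every such set held all 165 by construction. The median difference of 5.38 was 5.53 after quantile normalization and 0.78 after normexp background correction, run on median signals with an offset of 50.

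No member was called in the day comparisons with 3 exceptions: with the unused array kept under its label, 2 members were called for 1 d against 0 d and 3 for 4 d against 1 d, and in a fit of only the 2 groups compared 1 member, GRMZM2G405503_T01, was called for 4 d against 0 d. The replicate block changed no adjusted call of a member and moved those past the methods' threshold for 4 d against 0 d from 3 to 4. Correlations of same-numbered arrays ran from -0.12 to 0.43, so the values do not settle whether the numbers mark the same repeat of the growth experiment. Over all probes, the 43 calls for 4 d against 0 d became 22 with the replicate block, 14 with the unused array, 3 with the slide block, 12 without a filter on dim probes, 4 with only the 8 Lo5 arrays, and 0 with normexp and with the methods' t-test. For 1 d against 0 d the unused array gave 3 calls. For 4 d against 1 d the 2 calls became 5 with the replicate block, 20 with the unused array, 0 with the slide block, 5 with marked spots kept, 7 with quantile normalization, 0 with normexp, 0 with the 2 groups alone, 1 with the methods' t-test, 8 with only the 8 Lo5 arrays and 14 with marked spots kept as well. The cause was not tested.

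Members past the methods' threshold for 4 d against 0 d were 3, and 0 with the unused array, 9 with the slide block, 6 with quantile normalization, 0 with normexp and 6 with the 2 groups alone. For 1 d against 0 d the 1 member became 5, 2, 3 and 0 under the first 4 of these, 0 with the methods' t-test, and 2 with only the 8 Lo5 arrays, marked spots kept or not. For 4 d against 1 d the 1 member became 9, 9, 4 and 0, then 2 with the 2 groups alone and 2 with the methods' t-test. Leaving out 1 Lo5 array gave 0 members called after adjustment in each comparison. It gave 1 to 3 members past the methods' threshold for 4 d against 0 d (1 without Lo5 0 d replicate 1), 0 to 5 for 1 d against 0 d (5 without Lo5 1 d replicate 2, 0 without Lo5 1 d replicate 1, and 2 without Lo5 0 d replicate 1 or 3) and 0 to 2 for 4 d against 1 d (0 without Lo5 4 d replicate 1 or 2, and 2 without Lo5 0 d replicate 3). Over all probes it gave 0 to 38 calls for 4 d against 0 d, with 12 or fewer without any 1 array of 0 d or 4 d, 0 to 86 for 1 d against 0 d (86 without Lo5 1 d replicate 2, 4 without Lo5 1 d replicate 1, and 1 without Lo5 0 d replicate 3) and 0 to 137 for 4 d against 1 d (137 without Lo5 1 d replicate 2, 21 without Lo5 1 d replicate 1, 7 without Lo5 4 d replicate 1, and 0 without Lo5 4 d replicate 3). Where 1 array was left at 1 d, it was assumed to vary like the other groups.

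Some ratios changed sign. With normexp, GRMZM2G106344_T01 was 0.48 for 1 d over 0 d and GRMZM2G018254_T01 was -0.64 for 4 d over 1 d. With the unused array, 1 d over 0 d was -2.08 for GRMZM2G405503_T01 and -1.10 for GRMZM2G124567_T01. Over all settings, adjusted p for 4 d over 0 d in limma and the methods' t-test ran from 0.0481 to 0.982 for GRMZM2G405503_T01 and from 0.0818 to 0.982 for GRMZM2G018254_T01.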
